A study of Mus musculus with 8 samples.

Results

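Aminoacyl-tRNA synthetases are the enzymes that load each amino acid onto its tRNA. The 36 genes described here were taken by symbol from a fixed list, and all 36 were found among the 24341 genes of the deposited table. Of these, 20 are counted as cytosolic and 16, those whose symbol ends in 2, as mitochondrial. All 36 reached a mean of at least 1 FPKM (fragments per kilobase of transcript and 1000000 mapped fragments) over the libraries, so none was lost to the filter on low values.

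RNA of heart ventricle was sequenced in 8 libraries, 4 labelled Cre positive (cre_positive) and 4 labelled Cre negative (cre_negative). Every library came from a male Med13/13L fl/fl mouse of 12 weeks on tamoxifen chow, 4 weeks after tamoxifen, so that floxed alleles and tamoxifen are common to both groups and the Cre is what differs. The series describes the deletion as specific to cardiomyocytes and names no Cre line in its labels; the other cells of the ventricle are not its target. Med13 and Med13l are paralogs, each found in the kinase module of the Mediator coactivator of RNA polymerase II, and the comparison asks how transcript levels differ once both are deleted. All libraries carry the floxed alleles, so an effect of the Cre itself cannot be told apart from that of the deletion. Libraries are named by group and by the number in their titles.

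Cells keep separate sets of these enzymes for translation in the cytosol and for translation of the few proteins encoded by mitochondrial DNA, and both sets are made from nuclear genes. Gars and Kars each serve both compartments from a single gene, Eprs carries the glutamyl and the prolyl activity in one protein, and Farsa and Farsb are the subunits of a single phenylalanyl enzyme. Mitochondria have no glutaminyl enzyme of their own: Ears2 loads glutamate onto the glutamine tRNA, and an amidotransferase made of Gatb, Gatc and Qrsl1 converts it. Several cytosolic synthetase genes are known targets of ATF4, the transcription factor of the amino acid response, which binds C/EBP-ATF response elements (CARE). The heart depends on mitochondrial translation for its respiratory chain, and inherited defects of several mitochondrial synthetases cause cardiomyopathy.

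The promoter sequences shown here are those that hold the CARE letters TGATGNAA on either strand, with that of Ears2 for comparison. RefSeq windows (GRCm38.p6) of 300 bases, from 250 bases before to 50 bases after a gene start, were matched for 27 of the 36 genes, 13 cytosolic and 14 mitochondrial. The CARE letters stood in 5 of the 13 cytosolic windows (Aars, Gars, Iars, Tars and Yars) and in 0 of the 14 mitochondrial ones, against 3.97% of all 32851 windows. The Aars window (chr8:111033592-111033891, plus strand) and the Yars window (chr4:129189653-129189952, plus strand) are given whole because both genes were called higher. In each sequence from Aars to Tars below, read 5′ to 3′ on the strand of the gene, the CARE letters are in capitals.
Aars promoter: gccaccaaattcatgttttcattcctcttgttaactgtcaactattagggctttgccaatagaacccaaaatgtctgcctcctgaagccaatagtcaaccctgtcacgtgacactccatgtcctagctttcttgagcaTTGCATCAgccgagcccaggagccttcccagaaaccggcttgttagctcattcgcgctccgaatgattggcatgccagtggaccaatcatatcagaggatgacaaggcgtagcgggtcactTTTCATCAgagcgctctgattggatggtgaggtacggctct
Yars promoter: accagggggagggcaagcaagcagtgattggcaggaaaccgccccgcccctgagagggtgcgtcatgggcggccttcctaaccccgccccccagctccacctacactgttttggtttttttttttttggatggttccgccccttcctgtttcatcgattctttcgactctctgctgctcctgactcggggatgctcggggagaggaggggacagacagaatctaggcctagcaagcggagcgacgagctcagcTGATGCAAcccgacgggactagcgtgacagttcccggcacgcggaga
Gars site (chr6:55037960-55037989, plus strand): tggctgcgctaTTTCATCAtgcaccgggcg
Iars site (chr13:49682126-49682155, plus strand): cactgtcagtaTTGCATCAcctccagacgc
Tars site (chr15:11399655-11399684, minus strand): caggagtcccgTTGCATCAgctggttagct

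The CARE letters in Iars, Tars and one of the Aars matches read TTGCATCA, which is the other strand of the TGATGCAA in Yars. Gars, Iars and Tars hold these letters and were not called, while Mars and Sars were called higher and have none in the window. Nars, Cars and Hars were also called higher, but no window was matched for them, so their letters were not read. The window of Ears2 (chr7:122067037-122067336, minus strand) is shown because this gene rose against the rest of its set. It holds no CARE letters, and its capitals mark an E-box, CACGTG.
Ears2 promoter: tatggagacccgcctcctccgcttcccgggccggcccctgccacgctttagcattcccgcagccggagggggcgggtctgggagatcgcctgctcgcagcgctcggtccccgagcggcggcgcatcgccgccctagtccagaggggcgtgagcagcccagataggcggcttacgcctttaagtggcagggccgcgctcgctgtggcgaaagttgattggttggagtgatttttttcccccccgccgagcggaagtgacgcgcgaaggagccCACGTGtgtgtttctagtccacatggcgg

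The E-box letters stood in 4 cytosolic windows (Aars, Farsb, Iars and Tars) and 1 mitochondrial window (Ears2), against 7.15% of all windows. The ETS letters CCGGAAG stood in 5 cytosolic and 4 mitochondrial windows, against 8.86% of all, and the NRF1 letters (GCGCAT followed at once by GCGC) in 0 windows of either set, against 0.971% of all. Matches to different motifs overlapped 0 times in the 27 windows. A match describes the letters only and was not tied to binding of any factor.

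Libraries differed in depth and in leftover ribosomal precursor. Estimated depth ran from 4470000 to 23300000 fragments in cre_positive and from 5480000 to 15200000 fragments in cre_negative libraries. The lowest level of any member was that of Pars2 in cre_positive library 1, at 1.56 FPKM or about 6.97 fragments per kilobase of transcript, so counting error weighs most there. The ribosomal precursor Rn45s stood at 396 to 1053 FPKM in 5 libraries (cre_positive 1 and 2, cre_negative 1, 3 and 4) and at 10.3 to 16.0 FPKM in the other 3, which were also the deepest. Med13 averaged 8.13 ± 0.554 FPKM in cre_positive and 12.0 ± 2.23 FPKM in cre_negative libraries, and Med13l 2.52 ± 0.113 FPKM in cre_positive and 4.92 ± 0.814 FPKM in cre_negative libraries (SD, n = 4 each), with no overlap of the groups for either gene. The deposited locus of Med13 extends beyond the RefSeq gene, so its FPKM may hold reads of other features. Nothing in the labels says that the libraries are separate animals, and the library names of cre_negative 1 and 2 share a stem, so p-values measure the spread between these libraries only. In log2(FPKM + 1), cre_negative 1 and 2 differed by a median of 0.163 per gene. Over all pairs of cre_negative libraries this median ran from 0.127 to 0.246. The Pearson correlation of cre_negative 1 and 2 was the highest of these pairs, at 0.9819, with the others at 0.9690 to 0.9815. Whether these libraries come from the same animal was not tested.

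In cre_positive ventricles most calls among cytosolic synthetases were higher and most calls among mitochondrial ones lower. Among the 20 cytosolic genes 7 were called higher (Nars, Aars, Cars, Mars, Sars, Hars and Yars) and 2 lower (Farsb and Kars), where a call is an adjusted p under 0.05 in limma over the 11688 genes tested. Among the 16 mitochondrial genes 9 were called lower (Sars2, Yars2, Vars2, Fars2, Tars2, Cars2, Hars2, Rars2 and Wars2) and 1 higher (Ears2). Of all genes tested 39.2% were called, 19.7% higher and 19.4% lower. Against that background 35.0% of the cytosolic genes were called higher and 56.2% of the mitochondrial genes lower, while the shares called in the opposite direction, 2 of 20 and 1 of 16, lay below it. The median log2 change was 0.05 for the cytosolic and -0.50 for the mitochondrial genes, beside -0.01 for all genes tested. Of the 16 mitochondrial genes 15 had a log2 change below 0, the exception being Ears2, and 10 had every cre_positive library below every cre_negative one. Of the cytosolic genes 7 were higher and 3 lower without overlap. These are not the called genes alone: Lars (higher) and Eprs (lower) did not overlap and were not called, while Hars was called higher with overlapping groups. Over all genes tested the groups did not overlap in 38.0%, with 19.3% higher and 18.7% lower. All 19 called genes had a log2 change of the same sign within the libraries of high and of low Rn45s described above.

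**Figure D1:**
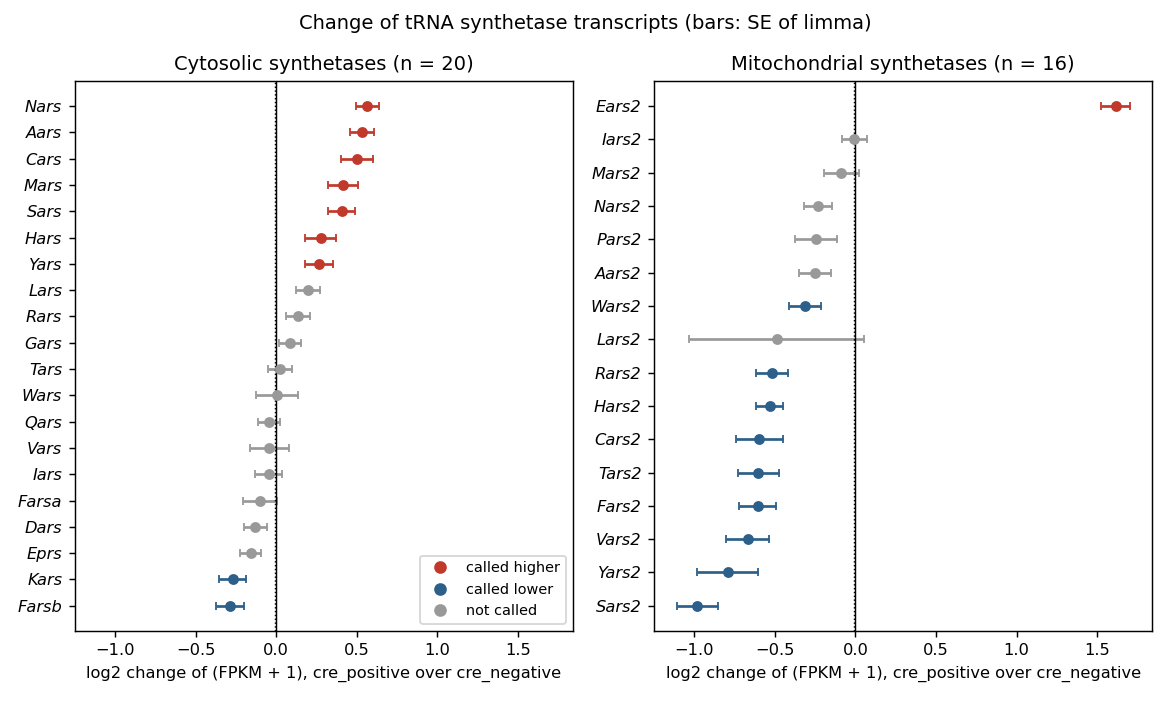
Log2 change of FPKM + 1, cre_positive over cre_negative, for each cytosolic (left) and mitochondrial (right) synthetase gene, with the SE of limma; colours give the call over all genes tested and the dotted line the median of all genes. Cytosolic changes run from -0.29 (Farsb) to 0.57 (Nars) and mitochondrial ones from -0.98 (Sars2) to -0.01 (Iars2), with Ears2 apart at 1.62.

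These values come from whole ventricle, where fewer cells of a type and less RNA per cell cannot be told apart. Of 6 cardiomyocyte markers 5 were called lower and 0 higher. Their summed level was 7988 to 9115 FPKM in cre_positive and 21819 to 25630 FPKM in cre_negative libraries. The log2 changes were uneven, from -2.95 for Ryr2 to -0.01 for Actn2, which was not called. Under a scaling to a fixed sum of FPKM 5 of these markers were called lower and 1 higher. Of 6 fibroblast markers 4 were called higher and 0 lower (636 to 713 FPKM in cre_positive and 483 to 557 FPKM in cre_negative libraries), and of 4 smooth muscle markers 3 and 0 (683 to 1115 FPKM in cre_positive and 183 to 309 FPKM in cre_negative libraries). Most of the smooth muscle sum was Acta2, with a mean of 779 FPKM in cre_positive and 194 FPKM in cre_negative libraries. The smooth muscle marker that was not called was Myh11 (log2 change -0.09). Dcn made up most of the fibroblast sum, at a mean of 466 FPKM in cre_positive and 399 FPKM in cre_negative libraries. It was not called (log2 change 0.22). Of 6 macrophage markers 4 were called lower and 0 higher (91.2 to 120 FPKM in cre_positive and 153 to 178 FPKM in cre_negative libraries), and of 5 endothelial markers 2 and 0 (249 to 275 FPKM in cre_positive and 306 to 347 FPKM in cre_negative libraries), the endothelial median of -0.29 on the log2 scale turning to 0.01 under a scaling to a fixed sum of FPKM. The 4 lymphocyte markers summed to 0.487 to 1.36 FPKM in cre_positive and 0.218 to 1.99 FPKM in cre_negative libraries. No list had a marker at the lowest value in all libraries. The part of these shifts in the synthetase values was not tested.

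Not all calls stood on equal ground. When each of the 8 libraries was left out in turn, 5 cytosolic genes stayed called higher every time (Nars, Aars, Cars, Mars and Sars), 8 mitochondrial genes stayed called lower (all but Wars2) and Ears2 stayed called higher. Hars lost its call without any 1 library other than cre_negative 4 (limma adjusted p of 0.0217 to 0.108 over the 8 fits). Yars lost it without any 1 other than cre_positive 1 or cre_negative 2 (0.0102 to 0.0955), and Kars without any 1 other than cre_positive 4 or cre_negative 3 (0.0132 to 0.0682). Farsb lost it without cre_positive 2 or 3 or cre_negative 1, 2 or 4 (limma adjusted p of 0.00424 to 0.0722), and Wars2 without cre_positive 1, 3 or 4 or cre_negative 3 or 4 (0.0274 to 0.0759). Without both cre_negative 1 and 2, Cars2 and Yars2 lost theirs as well (limma adjusted p = 0.0584 and 0.0663). Scaling every library to a fixed sum of FPKM put the median log2 change over all genes at 0.26. In that scaling 14 cytosolic genes were called higher and 0 lower, and 2 mitochondrial genes higher and 5 lower, with set medians of 0.35 and -0.22, while 45.9% of all genes were called higher and 8.73% lower. Farsb stood there at 0.01 and Kars at 0.03, so the direction of both flipped and neither was called.

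Nars, the asparaginyl enzyme (chromosome 18, 64499647 to 64516557, mm10), had the largest rise of the cytosolic set. It stood at 65.4, 68.2, 66.6 and 60.6 FPKM in cre_positive libraries 1 to 4, against 47.0, 42.7, 42.4 and 42.8 FPKM in cre_negative libraries 1 to 4. Every cre_positive library lay above every cre_negative one, with a log2 change of 0.57 (SE 0.07, limma adjusted p = 1.40e-04). The change was 0.59 within the 5 libraries with high Rn45s and 0.56 within the 3 with low Rn45s. In cre_positive ventricles Nars had the highest mean level of the 20 cytosolic genes, at 65.2 ± 3.30 FPKM, and in cre_negative ventricles it ranked 4, at 43.7 ± 2.19 FPKM (SD, n = 4 each).

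Aars, the alanyl enzyme (chromosome 8, 111033842 to 111055569, mm10), was found at 42.5, 39.4, 42.1 and 38.5 FPKM in cre_positive libraries, against 27.6, 30.0, 26.8 and 26.8 FPKM in cre_negative libraries. The groups did not overlap and the mean was 1.46-fold higher (log2 change 0.53, SE 0.07, limma adjusted p = 2.28e-04). Its annotated span also holds the short gene Exosc6 on the same strand, at a mean of 3.74 FPKM. Cars, the cysteinyl enzyme (chromosome 7, 143557230 to 143600090, mm10), was found at 11.1, 11.6, 10.2 and 9.59 FPKM in cre_positive libraries, against 8.10, 7.76, 6.77 and 6.21 FPKM in cre_negative libraries. It too was higher in every cre_positive library, by 0.50 on the log2 scale (SE 0.10, limma adjusted p = 0.00244).

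Mars, the methionyl enzyme, which also acts in the charging of initiator tRNA, stood at 22.2, 24.2, 25.0 and 25.4 FPKM in cre_positive libraries, against 17.3, 21.0, 15.8 and 17.7 FPKM in cre_negative libraries. The groups came close, with cre_negative library 2 highest of the controls, and did not overlap (log2 change 0.42, SE 0.09, limma adjusted p = 0.00521). Mars lies at chromosome 10, 127290793 to 127311786 (mm10) in the table, a locus that takes in 5428 bases beyond the RefSeq gene. Ddit3, on the opposite strand, has the same locus in the table, and reads of both cannot be told apart if counting ignored strand. Ddit3 encodes the stress factor CHOP. It averaged 15.1 ± 1.38 FPKM in cre_positive and 14.998 ± 3.50 FPKM in cre_negative libraries (SD, n = 4 each) and was not called (log2 change 0.03). Sars, the seryl enzyme, averaged 27.6 ± 1.62 FPKM in cre_positive and 20.6 ± 1.81 FPKM in cre_negative libraries (SD, n = 4 each; log2 change 0.41, limma adjusted p = 0.00319).

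At the other end of the cytosolic set the changes were smaller. Kars, the lysyl enzyme of both compartments (chromosome 8, 111993439 to 112011354, mm10), was found at 48.2, 52.3, 54.8 and 57.6 FPKM in cre_positive libraries, against 63.0, 70.5, 58.3 and 65.9 FPKM in cre_negative libraries. Farsb, the beta subunit of the phenylalanyl enzyme, stood at 20.3, 19.3, 20.7 and 21.5 FPKM in cre_positive libraries, against 26.2, 28.0, 21.6 and 25.2 FPKM in cre_negative libraries. For both genes the groups did not overlap, with cre_negative library 3 nearest to the cre_positive ones, and the log2 change was -0.27 for Kars and -0.29 for Farsb. The locus of Farsb in the table runs 107612 bases beyond the RefSeq gene, so its FPKM may hold reads of other features. Farsa, the alpha subunit of the same enzyme, averaged 9.73 ± 1.01 FPKM in cre_positive and 10.5 ± 1.28 FPKM in cre_negative libraries (SD, n = 4 each) and was not called.

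Eprs, the enzyme of glutamate and proline, stood at 53.0, 50.6, 48.2 and 50.3 FPKM in cre_positive libraries, against 57.5, 54.9, 56.2 and 57.6 FPKM in cre_negative libraries. Its groups did not overlap, yet the log2 change of -0.16 was not called (limma adjusted p = 0.0754). Dars, the aspartyl enzyme, stood at 46.3, 47.9, 46.4 and 45.3 FPKM in cre_positive libraries, against 55.2, 49.3, 47.6 and 51.9 FPKM in cre_negative libraries, with overlap and no call (log2 change -0.13, limma adjusted p = 0.177). Lars, the leucyl enzyme, averaged 30.5 ± 1.48 FPKM in cre_positive and 26.5 ± 1.55 FPKM in cre_negative libraries (SD, n = 4 each), a log2 change of 0.20 that was not called (limma adjusted p = 0.0567). The cytosolic genes nearest to 0 were Wars, Tars, Qars, Vars and Iars, with log2 changes of 0.01, 0.03, -0.04, -0.04 and -0.05. Gars, of both compartments, stood at 0.08 and Rars at 0.14, and neither was called.

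The cytosolic set was also read by the form and listing of the enzymes, and differences between these subsets were not tested. Of the cytosolic enzymes 8 sit in the multisynthetase complex, a large assembly held by scaffold proteins, and among their genes 1 was called higher (Mars) and 1 lower (Kars), at a median log2 change of -0.04. Among the 12 genes outside the complex 6 were called higher and 1 lower (Farsb), at a median of 0.18. The scaffold genes Aimp1, Aimp2 and Eef1e1 were not called, with log2 changes of -0.16, -0.02 and 0.00. Of 12 genes on the list of ATF4 targets used here 6 were called higher (Nars, Aars, Cars, Mars, Sars and Yars) and 0 lower, with a median of 0.23. Of the 8 not listed 1 was called higher (Hars) and 2 lower, with a median of -0.07. Under the fixed sum of FPKM the medians of the complex and of the genes not listed flipped, to 0.25 and 0.20, beside 0.47 outside the complex and 0.53 for the listed genes. By the architecture of the catalytic domain, 3 of 9 class I and 4 of 10 class II cytosolic genes were called higher, and 0 and 2 lower, leaving aside Eprs, which has both classes.

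Ears2, the mitochondrial glutamyl enzyme (chromosome 7, 122034162 to 122067086, mm10), had the largest change of the 36 genes and the only call higher in the mitochondrial set. It stood at 11.5, 11.1, 10.7 and 10.8 FPKM in cre_positive libraries, against 2.69, 3.28, 2.57 and 3.21 FPKM in cre_negative libraries. The groups lay far apart relative to their spread, with a 3.75-fold higher mean and a log2 change of 1.62 (SE 0.09, limma adjusted p = 1.01e-06). A log2 change at least as high was reached by 0.890% of all genes tested. The change was 1.69 within the high-Rn45s and 1.45 within the low-Rn45s libraries, and the mean of Ears2 ranked 7 of the 16 mitochondrial genes in cre_positive and 15 of 16 in cre_negative ventricles.

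Of the genes that work with Ears2 in making the mitochondrial glutamine tRNA, 2 fell and 1 was not called. Qrsl1, the catalytic subunit of the amidotransferase, fell to 8.12 ± 0.886 FPKM in cre_positive libraries, against 16.6 ± 3.95 FPKM in cre_negative libraries (log2 change -0.93, limma adjusted p = 5.33e-04). Gatc, a second subunit, fell to 8.18 ± 0.235 FPKM in cre_positive libraries, against 12.5 ± 1.10 FPKM in cre_negative libraries (SD, n = 4 each; log2 change -0.56, limma adjusted p = 3.42e-04). Gatb, the third subunit, and Mtfmt, which formylates the initiator methionyl tRNA, were each at -0.18 and were not called.

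Sars2, the mitochondrial seryl enzyme (chromosome 7, 28741968 to 28753879, mm10), had the largest fall. It stood at 2.75, 2.68, 3.06 and 3.96 FPKM in cre_positive libraries, against 7.54, 7.58, 5.58 and 7.76 FPKM in cre_negative libraries. No cre_positive library reached the lowest cre_negative one, and the mean was 0.438 times the control mean (log2 change -0.98, SE 0.13, limma adjusted p = 1.78e-04). Yars2, the mitochondrial tyrosyl enzyme (chromosome 16, 16302965 to 16309640, mm10), was found at 5.22, 7.93, 7.15 and 10.2 FPKM in cre_positive libraries, against 14.4, 18.4, 11.5 and 11.3 FPKM in cre_negative libraries. It had the largest SE of the called genes, and the groups still did not overlap (log2 change -0.79, SE 0.19, limma adjusted p = 0.00760).

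Vars2, the mitochondrial valyl enzyme (chromosome 17, 35655635 to 35667592, mm10), was found at 4.00, 3.46, 4.73 and 5.01 FPKM in cre_positive libraries, against 8.20, 8.42, 5.67 and 7.46 FPKM in cre_negative libraries. Fars2, the mitochondrial phenylalanyl enzyme (chromosome 13, 36117643 to 36537595, mm10), was found at 25.5, 27.9, 28.8 and 25.4 FPKM in cre_positive libraries, against 44.4, 49.4, 33.4 and 40.2 FPKM in cre_negative libraries. In both genes every cre_positive library was the lower, cre_negative library 3 came nearest, and the log2 changes were -0.67 and -0.61 (limma adjusted p = 0.00279 and 0.00183). The span of Fars2 overlaps Lyrm4 and Nrn1 on the opposite strand, at means of 14.6 and 5.49 FPKM.

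**Figure D2:**
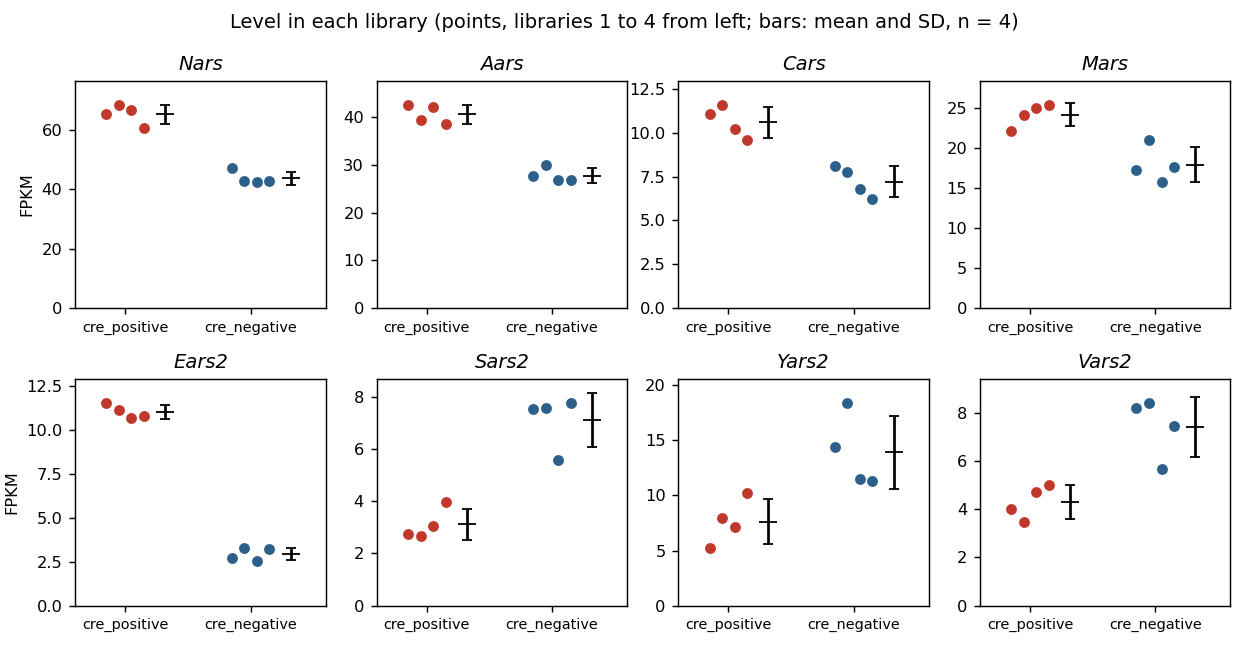
FPKM in each library for the 4 cytosolic genes with the largest rise (top) and for Ears2 and the 3 mitochondrial genes with the largest fall (bottom); points are libraries 1 to 4 from the left and bars the mean and SD of 4 libraries. In each of the 8 genes the groups do not overlap, and Ears2 sits between 10.7 and 11.5 FPKM in cre_positive libraries.

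Among the other mitochondrial genes called lower, Tars2 (threonyl) averaged 15.03 ± 2.25 FPKM in cre_positive and 23.3 ± 3.28 FPKM in cre_negative libraries, and Cars2 (cysteinyl) 12.5 ± 1.48 FPKM in cre_positive and 19.7 ± 4.22 FPKM in cre_negative libraries (SD, n = 4 each). Hars2 (histidyl) averaged 7.10 ± 0.512 FPKM in cre_positive and 10.7 ± 0.855 FPKM in cre_negative libraries, and Rars2 (arginyl) 12.3 ± 1.37 FPKM in cre_positive and 18.02 ± 1.66 FPKM in cre_negative libraries. These genes changed by -0.60, -0.60, -0.53 and -0.52 on the log2 scale, a narrow range beside an SE of 0.08 to 0.14. Wars2 (tryptophanyl), one of the least abundant, changed by -0.31. Under the fixed sum of FPKM, Tars2, Cars2, Rars2 and Wars2 kept a log2 change below 0 but lost the call, and there Iars2 was called higher (log2 change 0.30, against a median of 0.26 for all genes).

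Besides Lars2, the mitochondrial genes that were not called were Iars2, Mars2, Nars2, Aars2 and Pars2. Iars2, the mitochondrial isoleucyl enzyme, was the most abundant of its set and stood at 48.7, 55.3, 55.0 and 54.2 FPKM in cre_positive libraries, against 55.5, 57.7, 50.4 and 50.9 FPKM in cre_negative libraries. The groups overlapped (log2 change -0.01, SE 0.08), though the locus of the table runs 82474 bases beyond the RefSeq gene. Mars2 stood at 4.75, 6.02, 5.28 and 5.41 FPKM in cre_positive libraries, against 6.20, 5.98, 4.64 and 6.31 FPKM in cre_negative libraries, also with overlap. Nars2, the asparaginyl enzyme, stood at 4.74, 5.33, 4.71 and 4.41 FPKM in cre_positive libraries, against 6.12, 6.12, 5.21 and 5.76 FPKM in cre_negative libraries. In Nars2 only cre_positive library 2 passed the lowest control, and the log2 change of -0.23 missed the threshold (limma adjusted p = 0.0573). Aars2 and Pars2 changed by -0.25 each and were not called in the comparison of all libraries (limma adjusted p = 0.0720 and 0.162).

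Lars2, the mitochondrial leucyl enzyme, stood high and low with the ribosomal precursor in both groups. It stood at 23.9, 13.4, 4.20 and 5.16 FPKM in cre_positive libraries, against 15.5, 4.66, 19.5 and 22.3 FPKM in cre_negative libraries. The 5 libraries with high Rn45s had 13.4 to 23.9 FPKM of Lars2 and the 3 with low Rn45s had 4.20 to 5.16 FPKM, whatever the group. Over all libraries the log2 change was -0.49 with an SE of 0.54 (limma adjusted p = 0.514), and with the Rn45s batch as a term it was -0.05 with an SE of 0.18. The part that ribosomal RNA plays in the Lars2 level was not tested.

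**Figure D3:**
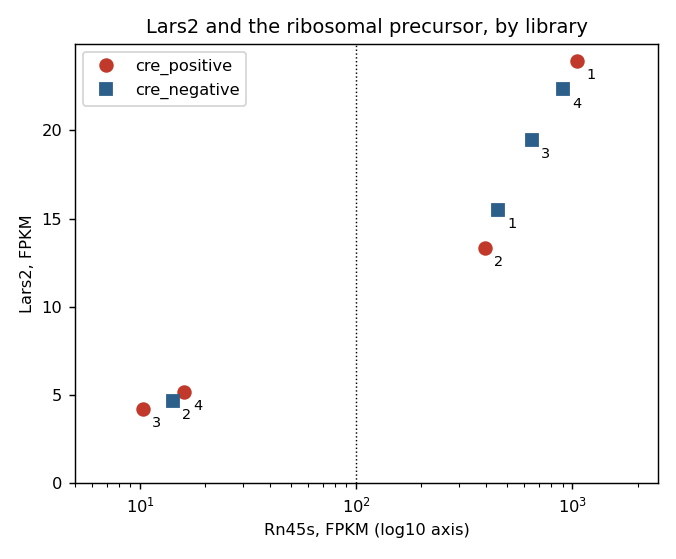
Lars2 (FPKM) against the ribosomal precursor Rn45s (FPKM, log10 axis) in each library, numbered as in the titles; the dotted line marks 100 FPKM of Rn45s. The 3 libraries left of the line have 4.20 to 5.16 FPKM of Lars2 and the 5 on its right have 13.4 to 23.9 FPKM, with both groups on either side.

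The balance between the enzymes of the cytosol and of mitochondria was followed for 13 amino acids with a gene for each, as the ratio of FPKM within a library, which does not depend on library scaling. The ratio of the cytosolic to the mitochondrial gene was higher in every cre_positive library than in any cre_negative one for 9 of 13 pairs, and lower without overlap for 0. Each of these 9 had an exact two-sided permutation p of 0.0286, the smallest possible with 4 against 4 libraries. After Benjamini-Hochberg adjustment over the 13 pairs it was 0.0413. Both values count cre_negative 1 and 2 as independent, which the labels do not establish. Among single genes tested the groups did not overlap in 38.0%. No such share was computed for ratios of other gene pairs, so how unusual 9 of 13 is was not tested. The median change of the log2 ratio over the 13 pairs was 0.75, and 0.76 within the 5 libraries with high Rn45s. In the 3 libraries with low Rn45s, 2 of them cre_positive, the median change was 0.75 with 13 of 13 pairs above 0, with no test.

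The serine pair moved most: Sars over Sars2 was 10.9, 9.98, 8.82 and 6.70 in cre_positive libraries, against 2.92, 2.85, 3.23 and 2.66 in cre_negative libraries (change of the log2 ratio 1.62, SE 0.16). Cysteine and tyrosine came next. Cars over Cars2 had a geometric mean of 0.847 in cre_positive and 0.370 in cre_negative libraries, and Yars over Yars2 one of 2.01 in cre_positive and 0.899 in cre_negative libraries. The locus of Yars in the table runs 42164 bases beyond the RefSeq gene, and the level of Yars may hold reads of other features. For histidine, Hars over Hars2 had a geometric mean ratio of 5.30 in cre_positive and 2.88 in cre_negative libraries. Iars over Iars2 was 0.364, 0.388, 0.373 and 0.378 in cre_positive libraries, against 0.381, 0.336, 0.448 and 0.388 in cre_negative libraries, and was the least changed pair (exact permutation p = 0.657). Groups also overlapped for the pairs of leucine, threonine and tryptophan, with exact permutation p of 0.400, 0.0571 and 0.0857, and that of leucine contains Lars2.

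**Figure D4:**
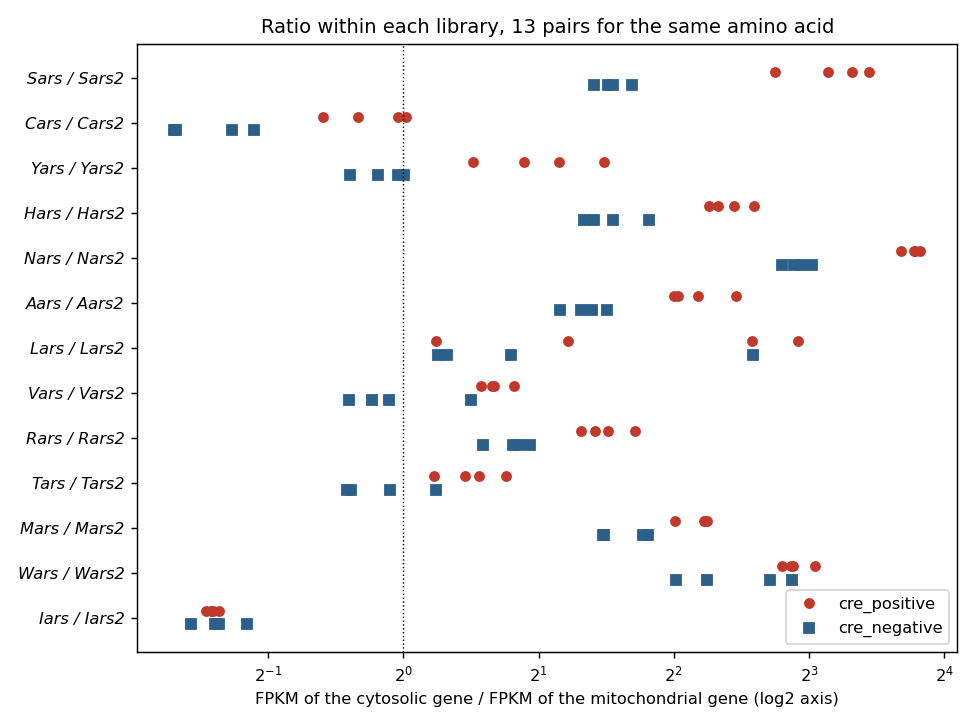
Ratio of the FPKM of the cytosolic to that of the mitochondrial gene (log2 axis) in each library, for the 13 amino acids with a gene for each compartment; circles are cre_positive and squares cre_negative libraries, and the dotted line marks equal levels. Circles and squares are apart for 9 pairs, all with the circles to the right, and overlap for Lars / Lars2, Tars / Tars2, Wars / Wars2 and Iars / Iars2.

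Counting the neighbours Hars and Hars2 as 1 pair, 8 synthetase genes start within 1000 bases of a gene on the opposite strand that is also in the table. Ears2 starts 88 bases from Ubfd1 in GENCODE M21, and Ubfd1 averaged 8.57 ± 0.954 FPKM in cre_positive and 10.1 ± 0.400 FPKM in cre_negative libraries (SD, n = 4 each). Its log2 change of -0.21 was not called (limma adjusted p = 0.0805), beside 1.62 for Ears2. Hars and Hars2 start 197 bases apart and were called in opposite directions, 0.28 and -0.53, where the call of Hars was among those lost when single libraries were left out. Sars2 starts 172 bases from Mrps12, a gene of the mitochondrial ribosome, and both were called lower, with Mrps12 at 57.5 ± 4.10 FPKM in cre_positive and 82.9 ± 9.31 FPKM in cre_negative libraries (log2 change -0.52). The neighbours of Rars2 (Orc3, -0.04), Fars2 (Lyrm4, 0.16), Kars (Terf2ip, -0.06), Yars (S100pbp, -0.19) and Wars (Wdr25, 0.05) were not called. The annotation puts 10 of the 36 genes in overlap with a protein-coding gene on the opposite strand, Ears2, Hars and Hars2 among them, and whether counting kept strand apart is not stated for these files.

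**Figure D5:**
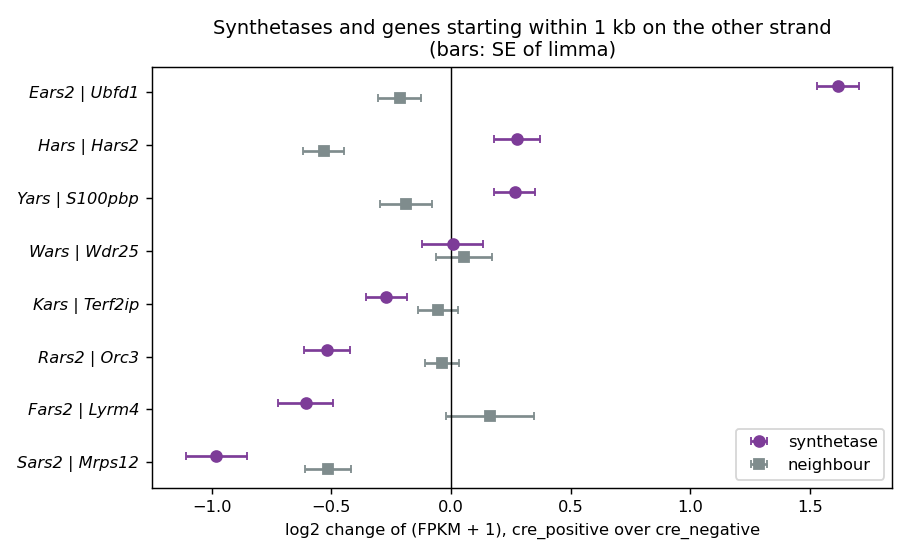
Log2 change of FPKM + 1, cre_positive over cre_negative, of 8 synthetase genes (circles) and of the protein-coding gene that starts within 1000 bases on the other strand (squares), with the SE of limma. Ears2 and Ubfd1 lie furthest apart, at 1.62 and -0.21, and Sars2 and Mrps12 both lie below 0, at -0.98 and -0.52.

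Other genes of mitochondrial translation were read against the 19.4% of all genes called lower. Of 10 mitochondrial translation factors 9 were called lower and 0 higher, at a median log2 change of -0.54, and under the fixed sum of FPKM 5 and 0, at -0.25, where 8.73% of all genes were called lower. Mtif2, the initiation factor that brings the first tRNA to the mitochondrial ribosome, fell to 13.6 ± 1.85 FPKM in cre_positive libraries, against 28.3 ± 2.13 FPKM in cre_negative libraries (SD, n = 4 each). Tufm, the elongation factor that delivers charged tRNA, fell to 87.0 ± 8.63 FPKM in cre_positive libraries, against 157 ± 9.10 FPKM in cre_negative libraries. Tsfm, its exchange factor, and Mtrf1l, a release factor, fell by 0.71 and 0.64 on the log2 scale. Of 12 genes of mitochondrial tRNA maturation 4 were called lower and 0 higher (median -0.18), and under the fixed sum of FPKM 3 lower and 1 higher, where the median flipped to 0.09. The 4 called lower were the methyltransferase Trmt5 (-0.90), Trmt10c of mitochondrial RNase P (-0.75), Trit1 (-0.68) and Mto1 (-0.47), the last of which modifies the wobble base.

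Outside the 36 genes, Tarsl2, which encodes a second cytosolic threonyl enzyme, had a larger change than any cytosolic member. It stood at 6.27, 7.27, 7.32 and 7.56 FPKM in cre_positive libraries, against 21.7, 20.7, 24.1 and 20.2 FPKM in cre_negative libraries, with a log2 change of -1.48 (limma adjusted p = 1.37e-06). Tars itself, at 0.03, was not called. Among genes that edit or release tRNA, Ptrhd1 was called higher (0.40), and the alanyl-editing factor Aarsd1 (-0.75) and the deacylase Dtd1 (-0.30) were called lower. The deposited locus of Ptrhd1 extends beyond the RefSeq gene, so its FPKM may hold reads of other features.

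On the side of the amino acid response, 3 of 11 tested genes were called higher and 0 lower (median log2 change 0.23), a share near the 19.7% of all genes called higher. Under the fixed sum of FPKM 8 were called higher and 0 lower (median 0.44), where 45.9% of all genes were called higher. Atf4 itself rose to 79.8 ± 4.05 FPKM in cre_positive libraries, against 54.6 ± 2.37 FPKM in cre_negative libraries (SD, n = 4 each; log2 change 0.54), Atf5 by 0.52 and Ppp1r15a, which restarts translation, by 1.40. The deposited loci of Atf5 and Ppp1r15a extend beyond the RefSeq genes, so their FPKM may hold reads of other features. Asns and Chac1, widely used readouts of ATF4, stood at 0.04 and -0.0015 and were not called. Trib3 and Sesn2, of the same list, were higher in cre_positive libraries without overlap, both at low levels. Trib3 averaged 1.20 FPKM in cre_positive and 0.678 FPKM in cre_negative libraries, and the filter on low values left it untested. Sesn2 averaged 1.42 FPKM in cre_positive and 1.01 FPKM in cre_negative libraries and was not called (log2 change 0.27, limma adjusted p = 0.0873). Of 7 tested amino acid transporter genes 4 were called higher and 0 lower (median 0.45): the neutral amino acid carriers Slc1a4 (1.16), Slc38a1 (0.95) and Slc38a2 (0.45) and the leucine carrier Slc7a5 (0.77). Under the fixed sum of FPKM 7 of 7 were called higher (median 0.75), so these counts stand beside 19.7% and, in that scaling, 45.9% of all genes called higher.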

How the data were processed

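Values were deposited by the authors as FPKM, 1 per gene symbol and library, made with Bowtie2 2.2.6 and Cufflinks on mm10 per the submitters' processing notes, from ribosome-depleted stranded total RNA per the labels' protocols. No source used here gives aligner settings, gene annotation, use of strand or filters. The lowest value is 0.01, and 3 genes hold a word in some cell, treated as missing. Libraries were grouped by their titles. Log2(FPKM + 1) of 11688 genes (mean FPKM 1 or above) was fitted with limma 3.58.1 in R 4.3.3 (eBayes with a trend). Benjamini-Hochberg adjustment ran over all of them, with a call at 0.05. The added pseudocount of 1 understates the change of low genes. Pair ratios were tested by exact permutation over 70 assignments (scipy 1.17.1). Depth was estimated from the level of single fragments in 3664 genes with 1 GENCODE transcript of 500 to 4000 bases, and covers counting error only. Loci are the table's, counted from 1. The fit was tested on simulated data. Alternatives were the pseudocount, the filter, scaling (quantiles, or a fixed FPKM sum over genes other than ribosomal and small RNA and ribosomal protein genes), the Rn45s batch (found in the data, split at 100 FPKM), each library left out and the replicate number as a block. Per-library values are given for the 4 highest and 4 lowest log2 changes of each set and for the extreme pairs, with further genes where a sentence needs them. The members and lists were chosen with earlier results of these data known. Some genes of these lists are not reported here.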

Additional observations from a re-analysis of the deposited data

Results flagged for a closer look

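In 72 groups of 4 libraries (36 genes in either group) the highest or lowest library was set against the other 3 by Dixon's criterion on the gap as a share of the range, which chance passes in about 1 of 20 groups. It was passed 6 times. In cre_positive, Sars reached 30.0 FPKM in library 1 with the others at 26.5 to 27.0, and Yars 15.9 FPKM in library 3 with the others at 14.6 to 14.7. Hars2 was at 6.34 FPKM in cre_positive library 1 with the others at 7.29 to 7.41, and Iars2 at 48.7 FPKM in the same library with the others at 54.2 to 55.3. In cre_negative, Nars reached 47.0 FPKM in library 1 with the others at 42.4 to 42.8, and Sars2 was at 5.58 FPKM in library 3 with the others at 7.54 to 7.76. Cre_positive library 1 accounts for 3 of the 6 and had the lowest estimated depth.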

How the results depend on the processing

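Counts of calls and directions in limma were recomputed under each alternative. Scaling to a fixed FPKM sum changed most: 14 cytosolic genes were called higher and 0 lower (median log2 change 0.35), and 2 mitochondrial genes higher and 5 lower (median -0.22), while calls over all genes became 5369 higher and 1022 lower, against 2307 and 2269. Under it the log2 change turned above 0 for Dars (0.17), Eprs (0.14), Farsa (0.18), Farsb (0.0090), Iars (0.25), Kars (0.034), Qars (0.26), Vars (0.23), Aars2 (0.029), Iars2 (0.30), Mars2 (0.17) and Nars2 (0.029). Cytosolic genes called lower numbered 3 with no filter on low values, where Eprs gained a call (limma adjusted p = 0.0312), 1 under quantile normalization, 0 in the high-Rn45s libraries alone, 0 to 2 when 1 library was left out, and, in alternatives chosen after seeing the data, 0 without cre_negative 1 and 2 and 1 with those averaged as 1. Mitochondrial genes called lower numbered 11 under quantile normalization and with the batch term, 8 in the high-Rn45s libraries, 8 to 10 when 1 library was left out and 7 without cre_negative 1 and 2. In the 3 low-Rn45s libraries, 2 cre_positive and 1 cre_negative, 3 cytosolic genes were called higher and the mitochondrial median was -0.38, in a fit that takes the lone cre_negative library to vary like the others. Other changes of sign were in genes near 0: Iars2 under quantile normalization (0.028), without cre_negative 1 and 2 (0.071) or with them averaged (0.018), Vars without cre_negative 1 and 2 (0.015), Wars with the batch term (-0.043), Tars in high-Rn45s libraries (-0.0061), and Gars (-0.048), Iars (0.077), Vars (0.089) and Wars (-0.22) in low-Rn45s libraries. With 1 library left out, log2 changes ran from -0.078 to 0.0093 for Iars, -0.0033 to 0.057 for Tars, -0.14 to 0.014 for Vars, -0.081 to 0.095 for Wars and -0.036 to 0.034 for Iars2, and the log2 ratio of Iars over Iars2 from -0.11 to 0.031. The replicate numbers do not pair the libraries: same-numbered deviations correlated at -0.162 to -0.078, and 0 of 4 correlated best with their own number. The fit with the replicate number as a block called 1963 genes higher and 1899 lower, with 5 cytosolic genes higher and 0 lower and 1 mitochondrial gene higher and 8 lower. The cause of these shifts was not tested. Depth limits the least abundant genes, Pars2 and Wars2, most.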

Other observations

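The summed level of the 20 cytosolic genes was 598 to 617 FPKM in cre_positive and 535 to 583 FPKM in cre_negative libraries. That of the 16 mitochondrial genes was 184 to 195 FPKM in cre_positive and 215 to 257 FPKM in cre_negative libraries, and without Ears2 and Lars2 it was 148 to 174 FPKM in cre_positive and 193 to 249 FPKM in cre_negative libraries. The mitochondrial sum rests largely on Iars2 and Fars2, which averaged 53.3 and 26.9 FPKM in cre_positive and 53.6 and 41.9 FPKM in cre_negative libraries. Among class I mitochondrial genes 5 of 9 were called lower and 1 higher, and among class II genes 4 of 7 lower and 0 higher.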
